A study of Mus musculus with 18 samples.

Results

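Glycolysis and hypoxia genes were followed in T cells from melanoma and spleen on 18 bead arrays. The set held 38 genes listed for glucose uptake, the glycolytic steps, lactate export, the hypoxia-inducible factor (HIF) and its target genes. A member counted as measured when a probe carrying its name was detected above background, at a detection p-value under 0.05, on at least 3 of the 18 arrays. Of the 38 genes, 31 were measured, out of 14581 measured genes in all. For Hk2, Gpi1, Eno1 and Ldhb no probe of that name was used here, and the probes of Slc16a1, Bnip3 and Ero1l (now Ero1a) were detected on at most 2, 0 and 1 arrays. These 7 genes have no level below.

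All cells came from female C57BL/6 mice of the genotype Foxp3-GFP-DTR-CD90.1, a reporter allele of the regulatory T cell factor Foxp3. Every mouse carried a tumour grown under the skin from 50000 injected B16F10 cells, a transplantable mouse melanoma line. Tumour and spleen were taken at a tumour diameter of about 10 mm. Regulatory T cells (Treg, CD4+CD25+Foxp3+), conventional T cells (Tconv, CD4+Foxp3-) and CD8 T cells (CD8+CD4-) were sorted without CD11b+ cells from both tissues, which gave 6 groups of 3 arrays. The spleens were thus those of tumour-bearing mice, and cells were pooled before sorting. No source says whether the 3 replicates of a group came from separate mice, and the spread behind each p-value may thus be technical. The 3 BeadChips held 6 arrays each, 1 from each group, and a group kept its position on all 3, which makes position and group inseparable. Since each array read a sorted population in bulk, more cells expressing a gene and more RNA in each cell cannot be told apart either.

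Glycolysis splits glucose into pyruvate in the cytosol and yields ATP without oxygen. Activated T cells are known to take up more glucose and to release lactate, and Treg are generally described as relying less on glycolysis than effector cells. In low oxygen the alpha subunit of HIF escapes hydroxylation by the prolyl hydroxylases, pairs with its partner Arnt and binds DNA at a short core motif, which switches on glucose transporters, most glycolytic enzymes, the lactate exporter and a set of stress genes. T cell receptor signals can also raise HIF in normal oxygen.

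The core of the HIF motif is commonly written as ACGTG or GCGTG, and the windows of 250 bases before the gene starts in RefSeq (GRCm38.p6) were searched for both words on both strands. A window was matched for 28 of the 31 measured genes, and none was matched for Slc2a3, Ndrg1 and Bnip3l. ACGTG stood in at least 1 window of 17 of the 28 (60.7%), against 2505 of 10613 genes measured on the arrays (23.6%) and 18.5% of all genes in the table. GCGTG stood in 67.9% of the 28 and in 45.6% of the measured genes, and CACGTG, the E-box word that contains ACGTG, in 10.7% and 9.16%. By the tumour against spleen Treg comparison, ACGTG stood in 10 of the 14 genes that rose (71.4%) and 7 of the 14 others (50%). GCGTG was split the other way, with 8 of 14 (57.1%) and 11 of 14 (78.6%). A match is a description of the letters and not evidence of binding. The windows are printed of the 8 genes that rose most in tumour Treg among those with a window, in the order of that difference, in gene direction and ending 1 base before the start. Capitals mark ACGTG and GCGTG or their complements CACGT and CACGC, which overlap once in Ankrd37. Their positions are chr3:51396548-51396797 (minus strand), chr11:120948817-120949066 (plus strand), chr11:78322823-78323072 (plus, the first of its 2 windows), chr8:45999851-46000100 (minus), chr6:124814159-124814408 (minus), chr10:78009808-78010057 (minus), chrX:106186850-106187099 (plus) and chr4:119108495-119108744 (plus).

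Mgarp: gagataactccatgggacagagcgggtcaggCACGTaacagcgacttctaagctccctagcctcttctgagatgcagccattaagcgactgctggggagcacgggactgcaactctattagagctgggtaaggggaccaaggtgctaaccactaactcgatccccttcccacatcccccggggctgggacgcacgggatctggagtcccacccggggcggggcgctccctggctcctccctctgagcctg

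Slc16a3: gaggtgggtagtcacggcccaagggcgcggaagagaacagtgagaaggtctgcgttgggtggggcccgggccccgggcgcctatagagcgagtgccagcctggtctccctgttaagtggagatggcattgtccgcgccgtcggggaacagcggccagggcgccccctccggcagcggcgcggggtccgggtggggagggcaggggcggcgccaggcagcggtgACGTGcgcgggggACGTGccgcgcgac

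Aldoc: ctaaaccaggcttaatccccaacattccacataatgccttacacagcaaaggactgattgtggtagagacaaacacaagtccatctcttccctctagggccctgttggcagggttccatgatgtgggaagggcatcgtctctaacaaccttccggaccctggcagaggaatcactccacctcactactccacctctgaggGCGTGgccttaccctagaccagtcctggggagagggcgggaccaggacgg

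Ankrd37: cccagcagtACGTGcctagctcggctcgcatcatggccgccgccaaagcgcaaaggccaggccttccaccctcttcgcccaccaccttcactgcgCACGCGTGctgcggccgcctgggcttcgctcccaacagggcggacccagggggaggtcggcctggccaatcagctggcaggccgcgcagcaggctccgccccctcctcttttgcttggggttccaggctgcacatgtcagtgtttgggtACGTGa

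Tpi1: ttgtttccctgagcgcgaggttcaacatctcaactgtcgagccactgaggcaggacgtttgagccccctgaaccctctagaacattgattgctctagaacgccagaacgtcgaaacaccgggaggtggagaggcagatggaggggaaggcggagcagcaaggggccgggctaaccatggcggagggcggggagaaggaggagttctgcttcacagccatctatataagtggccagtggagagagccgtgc

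Pfkl: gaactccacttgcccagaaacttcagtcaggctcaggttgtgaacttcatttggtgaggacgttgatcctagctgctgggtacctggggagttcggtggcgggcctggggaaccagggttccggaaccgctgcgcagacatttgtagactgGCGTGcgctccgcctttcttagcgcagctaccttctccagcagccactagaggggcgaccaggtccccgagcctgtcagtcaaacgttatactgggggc

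Pgk1: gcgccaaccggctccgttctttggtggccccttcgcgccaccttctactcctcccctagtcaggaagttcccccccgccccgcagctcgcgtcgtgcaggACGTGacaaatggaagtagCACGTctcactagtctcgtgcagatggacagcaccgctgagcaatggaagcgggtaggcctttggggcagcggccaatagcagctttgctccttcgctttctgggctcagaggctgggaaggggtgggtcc
Slc2a1: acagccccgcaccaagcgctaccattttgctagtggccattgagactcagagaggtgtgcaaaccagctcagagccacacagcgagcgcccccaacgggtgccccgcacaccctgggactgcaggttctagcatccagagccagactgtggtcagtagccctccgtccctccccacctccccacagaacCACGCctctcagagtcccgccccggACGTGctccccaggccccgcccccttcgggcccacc
The windows of Pgk1, Slc16a3 and Ankrd37 each held ACGTG 2 times and those of Slc2a1 and Mgarp 1 time. Aldoc and Pfkl held only GCGTG, 1 time each, which Slc2a1 held 1 time and Ankrd37 2 times. The Tpi1 window held neither, which says only that these letters were not in this window.

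Across the 31 genes, levels were highest in Treg from the tumour. In tumour Treg against spleen Treg, 15 of the 31 genes rose and 0 fell, against 1.73% of all 14581 genes higher and 0.713% lower. In tumour against spleen Tconv 5 rose and 0 fell (0.994% and 0.192% of all genes). In CD8 cells 2 rose and 0 fell (0.878% and 0.288%). Levels are log2 intensity after background correction and quantile normalization with a floor near 4, a difference of 1 is 2-fold in intensity, and a difference passed at an adjusted p under 0.05 in limma's moderated test over all genes. The median difference of the 31 genes was 1.02 for Treg, 0.63 for Tconv and 0.49 for CD8 cells, with medians over all genes of -0.0044, -0.011 and -0.014. All 22 of these calls had 1 direction on the 3 BeadChips, which is no separate support, since the calls were made on the same arrays. The group mean was highest in tumour Treg for 24 of the 31 genes (19.7% of all genes), and all 3 tumour Treg arrays lay above all 15 other arrays for 18 genes (2.28% of all genes). The exceptions were Pdk1 and P4ha1, highest in spleen Tconv, Adm in spleen Treg, Pfkfb4 and Kdm3a in tumour Tconv, and Pfkfb3 and Higd1a in tumour CD8 cells. Vegfa, counted among the 15, 24 and 18 genes, passed the detection filter only through its tumour Treg arrays.

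Quantile normalization forces all arrays to 1 distribution. With scaling by the median instead, the median over all genes moved to 0.13 in Treg and that of the 31 genes to 1.41, with 19 higher and 0 lower, against 588 higher and 41 lower among all genes (252 and 104 before). Among all genes the balance of higher and lower calls also moved in the other comparisons. In tumour against spleen Tconv it went from 145 and 28 to 95 and 3, with 2 members left (Tpi1 and Mgarp), and in CD8 cells from 128 and 42 to 95 and 13, with Mgarp left. In Treg against CD8 cells it went from 397 and 226 to 763 and 103 in tumour, with 17 members higher, and from 243 and 169 to 169 and 76 in spleen, with 2. In Treg against Tconv of the spleen it went from 159 and 74 to 116 and 24, with 1 member in either. For the Treg difference less that of Tconv it went from 10 and 10 to 35 and 5, and less that of CD8 cells from 20 and 14 to 38 and 8, with Aldoc and Slc16a3 past the threshold in both.

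Cd4 and 1 Foxp3 probe followed the labels of the sorts. Of 4 Foxp3 probes, 1 read 8.24 to 9.32 on the 6 Treg arrays and 4.07 to 4.41 on the other 12, while the others overlapped. The brightest Foxp3 probe, which enters the sum below, was among those that overlapped (6.77 to 7.87 on Treg arrays and 5.88 to 7.45 on the others). The mean of Cd4 was 8.22 to 8.83 in the CD4+ groups and 4.28 and 4.35 in the CD8 groups. The 9 measured T cell markers summed to 7166.1 to 9214.3. Median raw signals ran from 79.0 to 88.1 and 38.0% to 45.2% of probes were detected on each array, with mean signals of 134.8 to 155.8 on tumour Treg arrays and 117.2 to 143.1 on the others. Arrays of 1 group correlated across genes by 0.913 to 0.972.

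**Figure D1:**
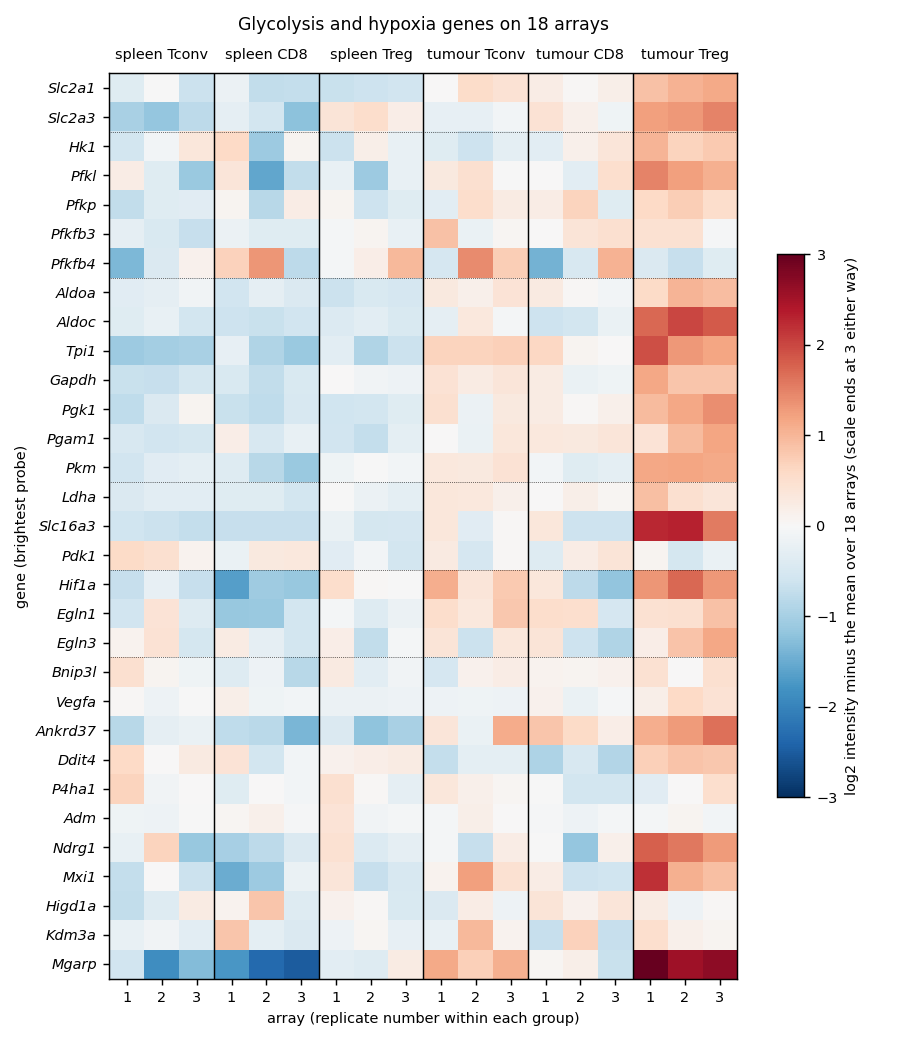
Heat map of the 31 measured genes (rows, in pathway order) on the 18 arrays (columns, 3 per group), coloured by log2 intensity minus the gene's mean over all arrays. The tumour Treg columns are the reddest for most transport, glycolysis and HIF target genes; Pfkfb3, Pfkfb4, Pdk1, P4ha1, Adm, Higd1a and Kdm3a are exceptions, and 24 of the 31 genes have their highest group mean there.

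Glucose enters T cells mainly through the facilitative transporters encoded by Slc2a1 (GLUT1) and Slc2a3 (GLUT3). Slc2a1 read 9.66, 9.83 and 9.92 on the tumour Treg arrays and 8.11, 8.15 and 8.21 on those of spleen Treg. It read 8.79, 9.33 and 9.22 in tumour Tconv against 8.41, 8.78 and 8.14 in spleen Tconv. In CD8 cells it read 9.00, 8.82 and 8.95 in tumour and 8.59, 8.03 and 8.07 in spleen. The tumour arrays lay above the spleen arrays of the same cell type in all 3 populations, and tumour Treg lay above every other array. The difference was 1.65 ± 0.19 in Treg (3.13-fold, adjusted p = 1.37e-04), with 1.55, 1.68 and 1.71 on the 3 BeadChips, while 0.67 ± 0.19 in Tconv and 0.69 ± 0.19 in CD8 cells did not pass (adjusted p = 0.13 and 0.113). Slc2a3 had another order, being high in Treg of both tissues. It read 9.42, 9.49 and 9.68 in tumour Treg, 8.58, 8.72 and 8.40 in spleen Treg, 7.95, 7.94 and 8.10 in tumour Tconv and 7.22, 7.03 and 7.41 in spleen Tconv. CD8 cells read 8.64, 8.36 and 8.06 in tumour and 7.92, 7.65 and 6.97 in spleen. Spleen Treg thus lay above every Tconv array of either tissue, and overlapped tumour CD8 cells. Slc2a3 rose by 0.96 ± 0.21 in tumour Treg (adjusted p = 0.0225), a call that was lost in 5 of the 6 omissions of 1 array (adjusted p = 0.0504 to 0.105), all but tumour Treg replicate 1. Its differences of 0.78 ± 0.21 in Tconv and 0.84 ± 0.21 in CD8 cells did not pass (adjusted p = 0.109 and 0.0791).

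Of the hexose phosphate steps, from hexokinase to phosphofructokinase, 1 of the 5 measured genes passed, in Treg. Pfkl, the liver-type phosphofructokinase subunit, read 9.23, 8.97 and 8.80 in tumour Treg against 7.51, 6.65 and 7.52 in spleen Treg. The Treg groups did not overlap, and the spleen arrays of other cells spread widely, from 6.18 to 8.10 in CD8 cells. Pfkl rose by 1.78 ± 0.42 (3.42-fold, adjusted p = 0.0366). The call was lost in all 6 of 6 omissions of 1 array (adjusted p = 0.0676 to 0.185), and the dimmer Pfkl probe gave 0.39 ± 0.44. Pfkp, the platelet-type subunit, read 7.96, 8.08 and 7.88 against 7.44, 6.74 and 6.98, without overlap, and its 0.92 ± 0.31 did not pass (adjusted p = 0.179). Hk1, a hexokinase that traps glucose in the cell, read 6.31, 5.95 and 6.08 in tumour Treg and 4.65, 5.48 and 5.07 in spleen Treg. All other groups of Hk1 lay below tumour Treg, yet 1.05 ± 0.35 did not pass either (adjusted p = 0.183). Pfkfb3 and Pfkfb4, which make the activator of phosphofructokinase, differed by 0.36 ± 0.23 and -0.86 ± 0.65 in Treg (adjusted p = 0.637 and 0.722). Pfkfb4 read 5.11, 4.86 and 5.19 in tumour Treg and 5.48, 5.74 and 6.51 in spleen Treg, the only member whose tumour Treg arrays all lay below those of spleen Treg, as they did for 9.74% of all genes.

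Of the genes from aldolase to pyruvate kinase, the 7 that were measured rose in tumour Treg, and Eno1, of the step before pyruvate kinase, was not measured. Aldoa, the main aldolase, read 9.72, 10.16 and 10.07 in tumour Treg and 8.49, 8.68 and 8.63 in spleen Treg. Tumour Tconv at 9.43, 9.29 and 9.55 and tumour CD8 cells at 9.40, 9.16 and 9.05 lay between, above their own spleen arrays at 8.79, 8.88 and 9.04 and 8.56, 8.86 and 8.72. Aldoa rose by 1.39 ± 0.14 in Treg (adjusted p = 6.54e-05), and 0.52 ± 0.14 in Tconv and 0.49 ± 0.14 in CD8 cells did not pass (adjusted p = 0.118 and 0.148). Aldoc, the aldolase best known from brain, read 6.47, 6.74 and 6.59 in tumour Treg. Every other array lay between 4.08 and 5.06. It was detected on 3 of 3 arrays of tumour Treg and tumour Tconv, 2 of spleen Treg, 2 of spleen Tconv, 1 of tumour CD8 and 0 of spleen CD8 cells. Aldoc rose by 2.25 ± 0.16 in Treg (4.76-fold, adjusted p = 1.89e-06), and its dimmer probe rose too (0.98 ± 0.18, adjusted p = 0.00662 over all detected probes).

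Tpi1, which interconverts the triose phosphates, showed a graded pattern. It read 11.04, 10.41 and 10.30 in tumour Treg, 9.79, 9.77 and 9.83 in tumour Tconv and 9.74, 9.18 and 9.13 in tumour CD8 cells. The spleen arrays read 8.80, 8.20 and 8.45 in Treg, 8.01, 8.08 and 8.14 in Tconv and 8.86, 8.21 and 7.99 in CD8 cells. No tumour array of a cell type overlapped its spleen arrays, and tumour Treg lay above all others. Tpi1 rose by 2.10 ± 0.24 in Treg (4.29-fold, adjusted p = 1.38e-04) and by 1.72 ± 0.24 in Tconv (adjusted p = 0.00141). In CD8 cells 1.00 ± 0.24 did not pass (adjusted p = 0.0708) but did with the BeadChip as a block (adjusted p = 0.0179). The second Tpi1 probe gave 2.18 ± 0.19, 1.77 ± 0.19 and 1.40 ± 0.19 and passed in all 3 populations (adjusted p = 1.84e-05, 1.41e-04 and 0.00162 over probes), whereas the third, detected on 9 arrays, gave 0.07 ± 0.32 in Treg.

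Gapdh, the dehydrogenase that reduces NAD and a common reference gene, was not level across these groups. It read 8.89, 8.57 and 8.56 in tumour Treg and 7.75, 7.63 and 7.58 in spleen Treg. Tconv read 8.18, 7.98 and 8.11 in tumour and 7.07, 7.05 and 7.21 in spleen, and CD8 cells 7.99, 7.53 and 7.61 and 7.28, 6.99 and 7.28. Tumour arrays lay above spleen arrays in each population. Gapdh rose by 1.02 ± 0.14 in Treg and 0.98 ± 0.14 in Tconv (adjusted p = 8.13e-04 and 0.00197), the latter lost with median scaling (adjusted p = 0.0857), and 0.53 ± 0.14 in CD8 cells did not pass (adjusted p = 0.111). Pgk1, whose enzyme makes the first ATP of the pathway, read 9.59, 9.80 and 10.05 in tumour Treg and 8.06, 8.11 and 8.28 in spleen Treg. It rose by 1.67 ± 0.21 (3.17-fold, adjusted p = 2.70e-04), while its dimmer probe gave 0.44 ± 0.24 (adjusted p = 0.588 over probes). Pgk1 differed by 0.57 ± 0.21 in Tconv and 0.78 ± 0.21 in CD8 cells without passing.

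Pgam1, the phosphoglycerate mutase, read 8.33, 8.86 and 9.11 in tumour Treg against 7.35, 7.20 and 7.62 in spleen Treg. The lowest tumour Treg array still lay above every other array, the highest of which was 8.29 in tumour CD8 cells. It rose by 1.37 ± 0.21 (adjusted p = 0.00143), and by 1.45 ± 0.22 on its second probe (adjusted p = 0.00146 over probes). Pkm, the pyruvate kinase of the last step, read 9.52, 9.55 and 9.52 in tumour Treg, the tightest of the groups of this gene, against 8.25, 8.35 and 8.29 in spleen Treg. Tumour Tconv read 8.68, 8.67 and 8.81 against 7.79, 8.03 and 8.09 in spleen. CD8 cells read 8.30, 8.02 and 8.07 and 7.98, 7.54 and 7.26, the lowest means of each tissue. Pkm rose by 1.23 ± 0.16 in Treg and 0.75 ± 0.16 in Tconv (adjusted p = 3.08e-04 and 0.0258). The Tconv call was lost in 5 of the 6 omissions of 1 array (adjusted p = 0.0707 to 0.129), all but spleen Tconv replicate 3, and with median scaling (adjusted p = 0.328). The splice forms of Pkm were not told apart by its single probe.

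**Figure D2:**
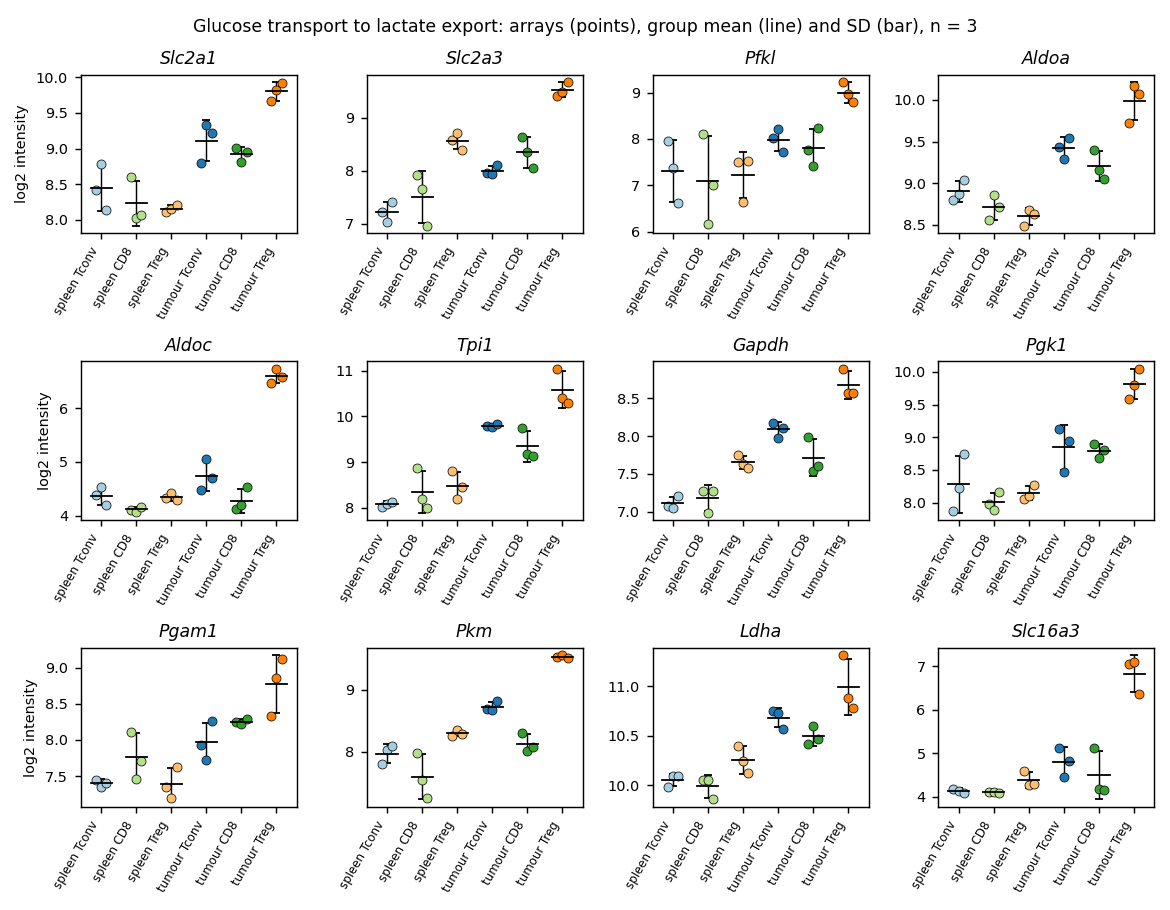
Levels of 12 genes from glucose transport to lactate export, in log2 intensity on a separate axis for each gene, with 1 point per array, the group mean as a line and the SD as a bar (n = 3). The 3 tumour Treg points lie above all other points in each panel; Aldoc and Slc16a3 stay between 4.08 and 5.14 on all other arrays.

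Pyruvate is reduced to lactate by Ldha and leaves the cell through monocarboxylate transporters, of which Slc16a3 (MCT4) is the exporter of strongly glycolytic cells. Ldha read 11.31, 10.88 and 10.78 in tumour Treg and 10.40, 10.24 and 10.12 in spleen Treg. It read 10.74, 10.73 and 10.57 in tumour Tconv against 9.98, 10.09 and 10.09, and 10.41, 10.59 and 10.47 in tumour CD8 cells against 10.05, 10.05 and 9.86. Groups did not overlap in any population, but the steps were small. Ldha rose by 0.74 ± 0.14 in Treg (1.67-fold, adjusted p = 0.00802) and by 0.63 ± 0.14 in Tconv (adjusted p = 0.0389). The Tconv call was lost in 6 of the 6 omissions of 1 array (adjusted p = 0.0624 to 0.144) and with median scaling (adjusted p = 0.221). Slc16a3 read 7.06, 7.10 and 6.36 in tumour Treg against 4.60, 4.27 and 4.30 in spleen Treg. It read 5.13, 4.45 and 4.83 in tumour Tconv and 5.14, 4.18 and 4.17 in tumour CD8 cells, of which 1 array was above background. It was detected on 1 of 3 spleen Treg arrays and on 0 of the 6 spleen Tconv and CD8 arrays. Slc16a3 rose by 2.45 ± 0.25 in Treg (5.46-fold, adjusted p = 6.54e-05), whereas a second probe near background on 9 arrays gave 0.04 ± 0.14. Pdk1, the kinase that holds pyruvate back from the mitochondria and a known HIF target, read 5.37, 4.76 and 5.08 in tumour Treg against 4.94, 5.20 and 4.73, with overlap. Its difference was 0.11 ± 0.25 (95% interval -0.42 to 0.64, adjusted p = 0.962), and -0.46 ± 0.25 in Tconv.

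Hif1a encodes the alpha subunit of HIF, and Egln1 and Egln3 encode prolyl hydroxylases that mark it for decay and are themselves HIF targets. Hif1a read 8.04, 8.43 and 8.02 in tumour Treg and 7.24, 6.75 and 6.69 in spleen Treg on its brighter probe. Tconv read 7.79, 7.08 and 7.50 and 6.02, 6.47 and 6.02, and CD8 cells 7.06, 5.93 and 5.52 and 5.06, 5.64 and 5.57. Treg and Tconv of the tumour lay above their spleen arrays, while CD8 cells overlapped. The differences of 1.27 ± 0.32, 1.29 ± 0.32 and 0.75 ± 0.32 in Treg, Tconv and CD8 cells did not pass (adjusted p = 0.0534, 0.0776 and 0.385). The dimmer Hif1a probe, detected on all 18 arrays, read 7.79, 8.29 and 8.10 in tumour Treg and 6.22, 6.47 and 6.41 in spleen Treg. On it Tconv read 7.14, 6.92 and 6.89 and 5.67, 5.65 and 5.39, and CD8 cells 6.08, 5.99 and 6.27 and 5.13, 5.42 and 5.50, without overlap between tissues. It rose by 1.69 ± 0.15, 1.42 ± 0.15 and 0.76 ± 0.15 (adjusted p = 2.27e-05, 1.37e-04 and 0.0282 over probes). Both probes thus pointed the same way, and the call depended on the probe. Egln1 read 7.09, 7.11 and 7.51 in tumour Treg against 6.58, 6.25 and 6.45 in spleen Treg, and differed by 0.81 ± 0.29, 0.73 ± 0.29 and 1.10 ± 0.29 in the 3 populations without passing. Of its other probes 1 passed, in CD8 cells (1.37 ± 0.30, adjusted p = 0.0438 over probes). Egln3 read 5.79, 6.44 and 6.76 against 5.78, 4.86 and 5.52 and differed by 0.95 ± 0.40 in Treg (adjusted p = 0.34), 0.02 ± 0.40 in Tconv and -0.18 ± 0.40 in CD8 cells.

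Of the 11 measured HIF targets outside glycolysis, 3 rose in tumour Treg. Mgarp, a mitochondrial protein that in rodent neurons is induced by HIF and aids mitochondrial transport, had the largest difference of the 31 genes. It read 10.21, 9.71 and 9.86 in tumour Treg and 6.84, 6.78 and 7.40 in spleen Treg. Tumour Tconv read 8.29, 7.87 and 8.23 against 6.58, 5.29 and 5.87 in spleen. CD8 cells read 7.21, 7.34 and 6.49 and 5.41, 4.83 and 4.65. No tumour group overlapped its spleen group, and spleen Treg lay above spleen Tconv and CD8 cells. Mgarp rose by 2.91 ± 0.31 in Treg cells, 2.22 ± 0.31 in Tconv and 2.05 ± 0.31 in CD8 cells (7.54, 4.66 and 4.15-fold, adjusted p = 8.28e-05, 0.00141 and 0.0028). By the brightest probe of each gene, Mgarp was the only member past the threshold in all 3 populations. The second Tpi1 probe and the dimmer Hif1a probe also passed in all 3, over probes. Ankrd37, an ankyrin repeat protein known as a HIF target, read 7.53, 7.71 and 8.10 in tumour Treg and 6.00, 5.23 and 5.47 in spleen Treg. In CD8 cells it read 7.26, 7.01 and 6.64 against 5.68, 5.64 and 5.07, and in Tconv 6.79, 6.24 and 7.55 against 5.61, 6.18 and 6.24. It rose by 2.21 ± 0.31 in Treg and 1.51 ± 0.31 in CD8 cells (adjusted p = 8.37e-04 and 0.0274), while 0.85 ± 0.31 in Tconv did not pass (adjusted p = 0.346). The CD8 call was lost without spleen CD8 replicate 3, tumour CD8 replicate 1 or tumour CD8 replicate 2 (adjusted p = 0.0877 to 0.11).

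Vegfa, the endothelial growth factor, was near background, and it passed the detection filter, with 5 arrays, only through its tumour Treg arrays, so that its difference there goes with the filter (14 of the 15 genes that rose are others). It was detected on 3 of 3 tumour Treg arrays, which read 4.44, 4.85 and 4.70, and on 0 of 3 spleen Treg arrays at 4.08, 4.09 and 4.11. That makes it at least 1.37-fold higher, the mean of the brighter group over that of the dimmer one with each dim array set to its lowest detected signal where that was higher (adjusted p = 0.0292). The call was lost in 5 of the 6 omissions of 1 array (adjusted p = 0.0885 to 0.136), all but tumour Treg replicate 1, and the other Vegfa probe gave 0.02 ± 0.20. Ndrg1, a stress protein induced by low oxygen in many cells, read 7.39, 7.18 and 6.87 in tumour Treg and 6.06, 5.19 and 5.32 in spleen Treg. All other arrays lay at or below 6.28. Its 1.62 ± 0.42 did not pass (adjusted p = 0.0627), but its dimmer probe, at 7.05, 6.57 and 6.79 against 4.59, 4.57 and 5.26, did (2.00 ± 0.24, adjusted p = 2.28e-04 over probes). Mxi1, an antagonist of MYC, read 7.99, 6.85 and 6.70 against 6.16, 5.11 and 5.31, and 1.65 ± 0.43 did not pass (adjusted p = 0.0619). Its dimmer probe, detected on 3 of 3 tumour Treg and 0 of 3 spleen Treg arrays, was at least 2.15-fold higher (adjusted p = 4.20e-04 over probes).

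Ddit4, an inhibitor of the growth kinase mTOR that is raised by low oxygen, glucocorticoids and other stress, had differences of opposite sign by population, none past the threshold. It read 10.79, 10.91 and 10.88 in tumour Treg and 10.20, 10.28 and 10.32 in spleen Treg. Tconv read 9.35, 9.79 and 9.77 in tumour and 10.66, 10.07 and 10.34 in spleen, and CD8 cells 9.15, 9.58 and 9.19 and 10.47, 9.53 and 9.98. Tumour Treg lay above spleen Treg, and tumour Tconv below spleen Tconv, without overlap. The differences were 0.60 ± 0.22, -0.72 ± 0.22 and -0.69 ± 0.22 (adjusted p = 0.227, 0.169 and 0.189), and the Treg difference less that of Tconv was 1.32 ± 0.30 (adjusted p = 0.134). The other 5 targets differed little in Treg. Bnip3l, a receptor for mitochondrial removal, differed by 0.36 ± 0.24 and Kdm3a, a histone demethylase, by 0.36 ± 0.39. Higd1a, a protein of the inner mitochondrial membrane, differed by 0.14 ± 0.30 and P4ha1, a collagen prolyl hydroxylase subunit, by -0.02 ± 0.25. Adm, the vasodilator peptide adrenomedullin, was detected on 3 arrays in all and differed by -0.10 ± 0.13. None of these passed in Tconv or CD8 cells.

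With 1 replicate number, and so 1 BeadChip, left out at a time, Slc2a1, Aldoa, Aldoc, Tpi1, Pgk1, Slc16a3 and Mgarp passed each time in tumour against spleen Treg. Slc2a3, Pfkl, Ldha and Vegfa were lost each time (adjusted p = 0.0693 to 0.43, and 0.0858 to 0.189 for Ldha). Gapdh and Pgam1 were lost without replicate 2 or 3, and Pkm and Ankrd37 without replicate 2 (adjusted p = 0.0512 to 0.111). In Tconv, Ldha and Pkm were lost each time and Gapdh, Tpi1 and Mgarp without replicate 2 or 3 (adjusted p = 0.0956 to 0.485). In CD8 cells Ankrd37 was lost each time and Mgarp without replicate 2 or 3 (adjusted p = 0.087 to 0.17). With only the 6 arrays compared in the fit, the calls of Ldha and Vegfa in Treg (adjusted p = 0.118 and 0.124), of Pkm, Ldha and Mgarp in Tconv (0.0626 to 0.124) and both in CD8 cells (0.0966 and 0.121) were lost.

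**Figure D3:**
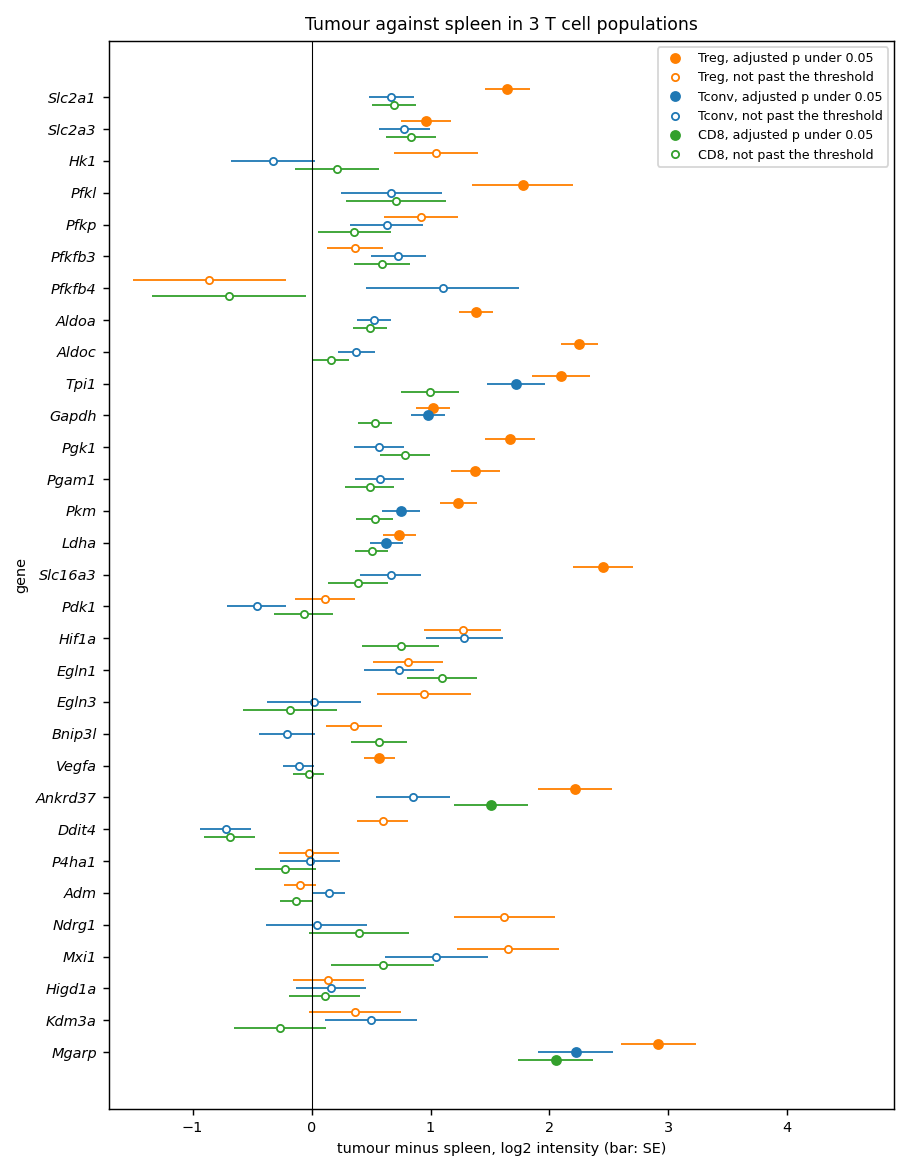
Tumour minus spleen difference of each gene in log2 intensity with its SE, in Treg (orange), Tconv (blue) and CD8 cells (green), filled where adjusted p is under 0.05. The orange point farthest right is Mgarp at 2.91, and 15 orange, 5 blue and 2 green points are filled. Fitted values against a spleen group at background are the orange point of Vegfa, the blue points of Slc16a3, Adm and Vegfa, and the green points of Aldoc, Slc16a3 and Adm.

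The cell types were next compared within each tissue. Within the tumour, 10 of the 31 genes were higher in Treg than in Tconv and 0 lower (1.9% and 0.823% of all genes), and 14 were higher in Treg than in CD8 cells and 0 lower (2.72% and 1.55%). The median differences of the 31 genes were 0.71 and 0.81, against -0.0025 and -0.0092 over all genes. These comparisons share the tumour Treg arrays with each other and with that against spleen. The largest against Tconv were Slc16a3 at 2.03 ± 0.25, Aldoc at 1.85 ± 0.16, Mgarp at 1.79 ± 0.31 and Ndrg1 at 1.72 ± 0.42 (adjusted p = 2.55e-04, 1.24e-05, 0.00431 and 0.0412). Slc2a3 followed at 1.53 ± 0.21 and Ddit4 at 1.23 ± 0.22 (adjusted p = 6.27e-04 and 0.00431). Pgk1, Pkm and Gapdh were higher by 0.97 ± 0.21, 0.81 ± 0.16 and 0.59 ± 0.14 (adjusted p = 0.0179, 0.00902 and 0.0398), and Vegfa, detected on 0 tumour Tconv arrays, was at least 1.35-fold higher (adjusted p = 0.0314). Vegfa passed the detection filter only through its tumour Treg arrays, so that this difference goes with the filter. Aldoc, Ddit4, Mgarp, Pkm, Slc16a3 and Slc2a3 passed without any 1 of the 6 arrays. Gapdh and Ndrg1 were lost in each omission (adjusted p = 0.0588 to 0.179 and 0.0542 to 0.172), Vegfa in all but that of tumour Treg replicate 1 (adjusted p = 0.0827 to 0.144), and Pgk1 without tumour Tconv replicate 2 or tumour Treg replicate 2 or 3 (adjusted p = 0.0578 to 0.0923). With the BeadChip as a block, Ndrg1 did not pass (adjusted p = 0.0602), while Tpi1 and Pgam1, at 0.79 ± 0.24 and 0.79 ± 0.21, did (adjusted p = 0.0403 and 0.0476 against 0.118 and 0.0561 without it). With median scaling, 17 members were higher in tumour Treg than Tconv, against 661 higher and 55 lower among all genes (277 and 120 before), whose median moved to 0.15.

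Against tumour CD8 cells, Mgarp was higher by 2.91 ± 0.31, Slc16a3 by 2.34 ± 0.25 and Aldoc by 2.32 ± 0.16 (adjusted p = 4.20e-05, 4.20e-05 and 6.35e-07). Hif1a at 1.99 ± 0.32, Ndrg1 at 1.88 ± 0.42 and Mxi1 at 1.72 ± 0.43 were higher as well (adjusted p = 0.00153, 0.0188 and 0.0348), as was Ddit4 at 1.56 ± 0.22 (adjusted p = 3.98e-04). Of the pathway itself, Pkm, Tpi1, Slc2a3, Pgk1, Gapdh, Slc2a1 and Aldoa were higher by 1.40 ± 0.16, 1.23 ± 0.24, 1.18 ± 0.21, 1.02 ± 0.21, 0.96 ± 0.14, 0.88 ± 0.19 and 0.78 ± 0.14 (adjusted p = 5.37e-05 to 0.0136). Leaving out 1 array ended the calls of Mxi1 (without tumour CD8 replicate 2 or 3 or tumour Treg replicate 1 or 2), Ndrg1 (without tumour CD8 replicate 2 or tumour Treg replicate 1 or 2) and Slc2a1 (without tumour CD8 replicate 2 or tumour Treg replicate 3), with adjusted p of 0.0529 to 0.161. With the BeadChip as a block Mxi1 did not pass (adjusted p = 0.053) and Ldha, at 0.50 ± 0.14, did (adjusted p = 0.0492, 0.0571 without it). The dimmer probes of Hif1a, Ndrg1 and Mxi1 passed against both cell types. Without each replicate number in turn, Aldoc passed every time against Tconv and CD8 cells, and Mgarp, Pkm and Slc16a3 every time against CD8 cells. Every other call within the tumour was lost at least once (adjusted p = 0.0538 to 0.406).

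In the spleen the cell types were closer. Slc2a3 was higher in spleen Treg than in spleen Tconv by 1.35 ± 0.21 (adjusted p = 0.00238), the only one of the 31 genes there (1.09% of all genes were higher). With the BeadChip as a block Gapdh, at 0.54 ± 0.14, passed too (adjusted p = 0.0432, 0.0907 without it). Against spleen CD8 cells 4 were higher in Treg (1.67%), namely Mgarp by 2.05 ± 0.31, Hif1a by 1.47 ± 0.32, Slc2a3 by 1.05 ± 0.21 and Pkm by 0.70 ± 0.16 (adjusted p = 0.00128, 0.0193, 0.011 and 0.021). Mgarp alone of these passed without any 1 of the arrays, and each of the 5 calls in spleen was lost without at least 1 replicate number (adjusted p = 0.0504 to 0.383). Pkm was lost in all omissions but that of spleen CD8 replicate 1 (adjusted p = 0.0606 to 0.0888), Hif1a without spleen CD8 replicate 1 or spleen Treg replicate 1 or 2 (adjusted p = 0.0519 to 0.101), and Slc2a3 without spleen Treg replicate 2 (adjusted p = 0.0586). Between CD8 cells and Tconv 0 of the 31 genes passed in tumour or spleen in limma's test, against 0.521% and 0.816% of all genes in either direction. In the tumour Tpi1, Pkm, Hif1a, P4ha1 and Mgarp lay lower on every CD8 array than on every Tconv array (5 of 31, against 6.39% of all genes), for instance Pkm by 0.59 ± 0.16 and Mgarp by 1.11 ± 0.31 (adjusted p = 0.165 and 0.223). The dimmer Hif1a probe was lower in tumour CD8 cells by 0.87 ± 0.15 (adjusted p = 0.0174 over probes).

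Whether the tumour against spleen difference was larger in Treg was tested as a difference of differences. Aldoc exceeded the difference of Tconv by 1.88 ± 0.22 (adjusted p = 0.00247), 1 of the 31 genes against 0.0686% of all genes higher. Against the difference of CD8 cells, Aldoc was larger by 2.09 ± 0.22 and Slc16a3 by 2.06 ± 0.36 (adjusted p = 5.33e-04 and 0.029), 2 of 31 against 0.137%. Both genes were detected on 1 of 3 tumour CD8 and 0 of 3 spleen CD8 arrays, so that the CD8 difference was not measured and these are fitted values. Aldoc passed without any 1 of the 12 arrays. Without each of the 3 replicate numbers in turn it passed against neither population (adjusted p = 0.143 to 0.192 against Tconv and 0.0763 to 0.125 against CD8 cells), and nor did Slc16a3 against CD8 cells (adjusted p = 0.0885 to 0.417). Slc16a3 was lost in 10 of the 12 omissions, all but those of tumour CD8 replicate 1 and tumour Treg replicate 3 (adjusted p = 0.0526 to 0.0806). Against Tconv, Slc16a3 at 1.78 ± 0.36 passed with the BeadChip as a block (adjusted p = 0.0462, 0.0699 without it), and with median scaling. It was detected on 0 of 3 spleen Tconv arrays, so that this is a fitted value too. For Slc2a1, Aldoa, Pgk1, Pgam1, Pkm and Ankrd37, which passed in Treg and not in both other populations, the difference of differences did not pass, with 0.98 ± 0.27, 0.86 ± 0.20, 1.10 ± 0.29, 0.80 ± 0.29, 0.48 ± 0.22 and 1.36 ± 0.44 against Tconv (adjusted p = 0.155 to 0.781, and 0.102 to 0.74 against CD8 cells). The tumour against spleen differences of these genes are thus not shown to differ between populations. Between CD8 cells and Tconv 0 of 31 passed (0.0411% of all genes did, in either direction).

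Of the 31 genes 15 had more than 1 detected probe, 51 probes in all, and probes of 1 gene did not always give 1 answer. In tumour against spleen Treg the second probes of Aldoc, Tpi1, Pgam1, Hif1a, Ndrg1 and Mxi1 passed (1.41% of all detected probes were higher). Those of Pfkl, Pgk1, Slc16a3 and Vegfa gave 0.39 ± 0.44, 0.44 ± 0.24, 0.04 ± 0.14 and 0.02 ± 0.20, none past the threshold, beside brighter probes that rose. The Slc16a3 and Vegfa probes were detected on 9 and 4 arrays and that of Pfkl on 11, while that of Pgk1 was detected on 17, with group means of 4.57 to 5.22. Which transcripts each probe reads was not tested.

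**Figure D4:**
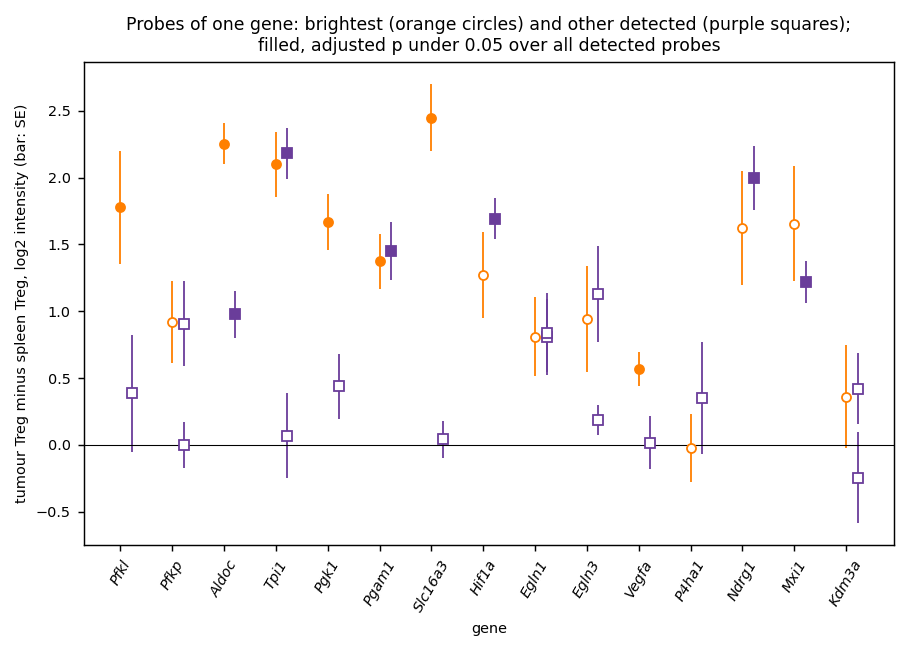
Tumour Treg minus spleen Treg difference (log2 intensity, bar SE) of the brightest probe (circles) and the other detected probes (squares) of the 15 genes with more than 1, filled where adjusted p over all detected probes is under 0.05. Tpi1, Pgam1 and Aldoc have filled circles and filled squares, Hif1a, Ndrg1 and Mxi1 filled squares beside open circles, and Slc16a3 a filled circle at 2.45 beside an open square near 0.

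Other genes of the pathways were listed too, and are set against the 1.73%, 0.994% and 0.878% of all genes that were higher in tumour for Treg, Tconv and CD8 cells. Of a list of 24 other glycolysis genes, which also held Mif, not a glycolytic enzyme, 18 were measured, and 2 rose in tumour Treg. Pgm1, the phosphoglucomutase that links glycogen to glycolysis, read 9.74, 9.12 and 8.71 in tumour Treg and 7.95, 6.64 and 7.29 in spleen Treg (1.90 ± 0.44, adjusted p = 0.0325). Mif, a cytokine that HIF induces, read 11.94, 11.52 and 11.57 against 11.06, 11.13 and 10.91 (0.65 ± 0.13, adjusted p = 0.0117). The median of the 18 was -0.01 in Treg, against 1.02 for the 31 genes, and 0 rose in Tconv or CD8 cells. Some of the 18 lay near the floor, where the offset compresses differences, such as Pgam2, Pklr and Ldhc at 4.07 to 4.82 on all arrays. Both lists were also chosen with earlier results of these data known, so that the 2 medians do not compare like sets. Of the pentose phosphate pathway 0 of 7 measured genes, and of the entry of pyruvate into mitochondria 0 of 10, passed in any of the 3 populations, with medians of 0.10 and -0.02 in Treg. Of 11 genes of HIF regulation 2 rose in tumour Treg. Epas1, the second alpha subunit, was detected on 0 of 3 spleen Treg arrays and read 6.02, 5.99 and 5.14 in tumour Treg, at least 2.81-fold higher (adjusted p = 0.0126). Cited2, which competes with HIF for its coactivator and is itself a HIF target, rose in all 3 populations, by 1.08 ± 0.19 in Treg cells, 0.99 ± 0.19 in Tconv and 0.87 ± 0.19 in CD8 cells (adjusted p = 0.00468, 0.0162 and 0.0385).

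Of 20 other measured HIF targets 2 passed in each population. Rora, a nuclear receptor, rose by 1.81 ± 0.42 in Treg cells, 2.46 ± 0.42 in Tconv and 1.85 ± 0.42 in CD8 cells (adjusted p = 0.031, 0.00631 and 0.0459), and the Treg and CD8 calls were lost with the BeadChip as a block (adjusted p = 0.0503 and 0.073). Fam162a, a mitochondrial protein, rose by 0.84 ± 0.20 in Treg (adjusted p = 0.0415, 0.0581 with the block). Hmox1, the haem oxygenase that macrophages also express, rose by 1.67 ± 0.32 in Tconv and 1.64 ± 0.32 in CD8 cells (adjusted p = 0.0165 and 0.0201), and differed by 1.12 ± 0.32 in Treg (adjusted p = 0.101).

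Melanoma cells and macrophages use glycolysis too, and their markers were present in all tumour sorts. The summed intensity of 10 measured melanoma markers, less the offset, ran from 636.5 to 991.5 in tumour Treg, 603.9 to 1250.2 in tumour Tconv and 470.1 to 677.1 in tumour CD8 cells, against 39.2 to 118.8 in the spleen groups. Of the 10, 4 rose in Treg and 1 in each other population. The 20 macrophage and monocyte markers summed to 1278.3 to 2561.8, 1092.7 to 2802.1 and 1986.7 to 2900.7 in the tumour groups, and to 145.6 to 907.7 in spleen, with 3, 4 and 5 past the threshold. The melanoma markers that rose in Treg were the pigment genes Dct, Pmel and Tyrp1 and the lysosomal gene Gpnmb, which macrophages express too, with means in spleen and tumour of 4.16 and 6.11 for Dct, 5.24 and 7.49 for Pmel, 4.17 and 5.45 for Tyrp1 (0 spleen arrays detected, at least 2.37-fold) and 5.65 and 9.02 for Gpnmb. Tyrp1 was also higher in tumour Treg than in tumour CD8 cells (1.17 ± 0.29, adjusted p = 0.0343). Of the macrophage list Fcer1g, Clec10a and Mmp12 rose in Treg, with means of 4.23 and 8.68 for Clec10a and 4.28 and 7.41 for Mmp12. Sox10, a defining gene of the pigment lineage, was detected on 0 tumour Treg arrays, as was the monocyte gene Cd14, and Itgam, the gene of CD11b, had group means of 4.13 to 4.43. Of 5 neutrophil markers, which summed to 173.2 to 637 in tumour Treg and 15.2 to 242.1 in the other tumour groups, Mmp9 was higher in tumour Treg than in spleen Treg, tumour Tconv and tumour CD8 cells (2.82 ± 0.32, 2.68 ± 0.32 and 2.99 ± 0.32, adjusted p = 1.27e-04, 1.76e-04 and 3.79e-05). S100a9 had a mean of 7.13 in tumour Treg against 4.73 to 6.33 in the other groups, and Ltf 5.41 against 4.13 to 4.26, without passing. The S100a9 arrays overlapped, at 7.97, 7.31 and 6.11 in tumour Treg and up to 7.78 in tumour Tconv and 7.81 in tumour CD8 cells. Ltf read 7.24, 4.37 and 4.60 in tumour Treg, so that its mean rests on 1 array. Ltf was detected on 4 arrays and passed the detection filter only through tumour Treg. S100a8 and Camp had group means of 4.17 to 4.56 and 4.11 to 4.53. The 5 dendritic cell markers summed to 98.1 to 204.4 in tumour Treg and 242 to 684 in the other groups. These sums are mainly Ccr7, which T cells express too, with group means of 7.05 to 9.16 against 4.07 to 5.40 for the others. They are thus no measure of dendritic cell RNA. Ccr7 was lower in tumour Treg than in spleen Treg (-0.91 ± 0.21, adjusted p = 0.0291). Zbtb46, a factor of classical dendritic cells, read 5.23, 4.54 and 5.67 in tumour Treg and was detected on 0 arrays of spleen Treg, tumour Tconv or tumour CD8 cells, against which it was at least 1.91, 1.88 and 1.78-fold higher (adjusted p = 0.0122, 0.00902 and 0.021). Zbtb46 passed the detection filter, with 3 arrays, only through tumour Treg, so that these differences go with the filter. Flt3 and Xcr1 were detected on 0 tumour Treg arrays. The 5 erythroid markers summed to 8 to 1341.9 in tumour and 2672.8 to 12161.3 in spleen. The 2 measured B cell markers summed to 5.8 to 200 and the 4 of fibroblasts and endothelium to 62.5 to 262.1 over all arrays. The melanoma, macrophage, neutrophil and erythroid sums of tumour Treg overlapped those of the other tumour groups. Gpnmb was the brightest melanoma marker there, with means of 9.02 in tumour Treg, 9.08 in tumour Tconv and 8.55 in tumour CD8 cells. Dct, Pmel, Tyrp1 and Mlana had their highest group means in tumour Treg (6.11, 7.49, 5.45 and 5.50). These were 5.21, 7.44, 4.93 and 5.19 in tumour Tconv, whose arrays overlapped, and 4.63, 6.725, 4.29 and 4.88 in tumour CD8 cells. Mitf did not follow, at 5.20, 5.36 and 5.65 in the same order of groups. The median level of the 31 genes was 7.71 to 7.96 on the tumour Treg arrays, 7.03 to 7.50 in tumour Tconv and 6.49 to 7.15 in tumour CD8 cells. In spleen that median was 6.25 to 6.58 in Treg, 6.02 to 6.28 in Tconv and 5.60 to 5.89 in CD8 cells. The part of these other cells in the tumour against spleen differences, or in those within the tumour, was not tested.

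**Figure D5:**
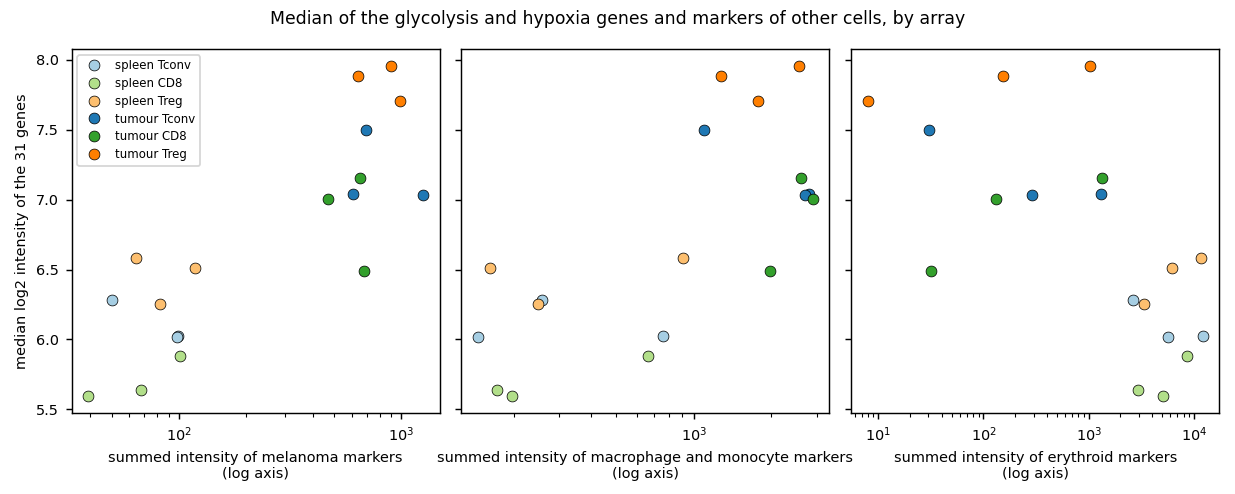
Median log2 intensity of the 31 genes on each array against the summed intensity of melanoma, macrophage and erythroid markers (log x axes), with 1 point per array coloured by group. Tumour and spleen arrays separate on all 3 axes. The 3 tumour Treg arrays have medians of 7.71 to 7.96 and the other tumour arrays 6.49 to 7.50. The part of these other cells was not tested.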

How the data were processed

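RNA of 18 sorted T cell samples, 2.5 ng each per the labels, was amplified and read on Illumina mouse bead arrays. The deposited signals are bead intensity for 46237 probes, not corrected or normalized per the file headers, each with a detection p-value, also per the file headers. The authors also deposited a value table of linear intensity, with medians of 83.5 to 85.9 per array and rank correlations with the signals of 0.999 or more. Its normalization and centring stay unknown, and it served as an alternative.

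Background was removed by the neqc function (limma 3.58.1, R 4.3.3) using the detection p-values, with an offset of 16 that compresses folds of dim genes, then quantile normalized and taken to log2. Of the probes, 35784 carried a single gene name in the platform annotation, 0 several and 10453 none. Names were updated by Entrez number (28620) or accession (2637) or kept (4527). Each gene was given by its brightest probe of those detected (p under 0.05) on 3 or more arrays, which left 14581 genes. All arrays entered 1 limma model with group means (12 residual degrees of freedom, eBayes), with Benjamini-Hochberg adjustment over these genes or, where "over probes" is written, over 27474 detected probes. Values after ± are standard errors of the fit, with n = 3 arrays a group. The scripts were tested on simulated data. Only 3 arrays a group limit the precision.

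The members, the neighbouring gene lists and the cell markers were chosen with earlier results of these data known. Every listed gene was accounted for, and members past the threshold were named in each comparison. The replicate number marks a shared BeadChip per the labels and so pairs arrays. Residuals of same-numbered arrays had a mean correlation of 0.0424 (5 of 45 pairs above 0.1). Alternatives were median scaling, no background correction, the authors' table, an offset of 50, stricter and no detection filters, the mean of probes, every probe, the replicate block, only the arrays compared, and leaving out arrays.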

Additional observations from a re-analysis of the deposited data

Results flagged for a closer look

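The tumour against spleen difference was larger in Treg than in Tconv for Aldoc by 1.88, and larger in Treg than in CD8 cells for Aldoc by 2.09 and for Slc16a3 by 2.06, each by a test of the difference itself on the log2 scale. Aldoc was higher on all 3 tumour Treg arrays than on the 15 others, with both of its detected probes, while the second detected Slc16a3 probe showed 0.04 ± 0.14 between tumour and spleen Treg. Both genes were detected on 1 of 3 tumour CD8 and 0 of 3 spleen CD8 arrays, so that the CD8 difference was not measured and the 2 values against CD8 cells are fitted ones. Without each replicate number in turn, none of these 3 differences passed.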

How the results depend on the processing

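Of 54 differences of a member past the threshold over the 12 comparisons, 0 changed sign under any alternative, and of 1042 pairs of such a difference and an alternative 830 stayed past the threshold and 212 did not, while 92 others came past it. Slc2a1, Aldoa, Aldoc, Tpi1, Pgk1, Slc16a3 and Mgarp stayed past it in tumour against spleen Treg under all 19 alternatives. Counts of members past the threshold that moved by over 1.5 times were as follows. With median scaling they were 2 for tumour against spleen Tconv, 1 for CD8 cells, 17 for Treg against Tconv in tumour, 2 for Treg against CD8 cells in spleen and 2 for the difference of Treg less that of Tconv. Without background correction and with the authors' table the count was 1 in CD8 cells and 2 for the difference of Treg less that of Tconv, and the authors' values gave 4 for that of Treg less CD8 cells. An offset of 50 gave 2 for the difference of Treg less that of Tconv. The mean of probes gave 4 in CD8 cells and 1 for CD8 cells against Tconv in tumour, and every probe gave 5 and 1, and 2 for Treg against Tconv in spleen. With the replicate block, 2 passed for Treg against Tconv in spleen and 2 for the difference of Treg less that of Tconv, and its 8 changes of a call are given beside the results. With only the arrays compared, the counts were 2 in Tconv, 0 in CD8 cells, 8 and 2 for Treg against CD8 cells in tumour and spleen, and 1 for the difference of Treg less that of CD8 cells. Fewer arrays enter that fit, and the other causes were not tested.

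Leaving out replicates gave 7 to 14 members in tumour against spleen Treg (7 without replicate 2), 0 to 4 in Tconv, 0 to 6 in CD8 cells (6 without spleen CD8 replicate 1), 2 to 10 and 0 to 2 for Treg against Tconv in tumour and spleen, 5 to 14 and 0 to 3 for Treg against CD8 cells, 0 to 1 and 0 to 0 for CD8 cells against Tconv, and 0 to 2, 0 to 2 and 0 to 0 for the differences of differences. In the comparisons with a member past the threshold, the lowest counts came with a whole BeadChip left out, which leaves 2 arrays in each group. Signal over background limits Aldoc, Slc16a3, Vegfa, Adm and the second probes near the floor.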
